A study of Homo sapiens with 4 samples.

Results

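The genes described here are 10 genes of the NF-kB transcription factor system: the subunit genes RELA, RELB, NFKB1 and NFKB2, the inhibitor genes NFKBIA, NFKBIE and TNFAIP3, and the target genes BIRC3, TRAF1 and ICAM1. They are a list of names, with no threshold on their values, but they were chosen with earlier results of these data known. All 10 were found among the 57820 gene IDs of the count files. Poly(A) RNA was sequenced from HEK293T, a line derived from human embryonic kidney, after the cells were transfected with an expression vector for SF3B1, a protein of the U2 snRNP that takes part in choosing the branch point and acceptor of introns. There was 1 library for each of 4 vectors: SF3B1 with the substitution R625H (1000 ng of plasmid), K666T (1000 ng) or K700E (2000 ng), and the wild-type protein (WT), for which the sources used here state no plasmid amount. Every group was the same cell line, grown in the same medium and transfected with Lipofectamine 2000, and the cells carried their own SF3B1 gene as well. With 1 library for each vector no difference has a replicate check, no test was made, and all intervals cover counting error only.

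NF-kB proteins bind DNA as pairs of subunits and are held in the cytoplasm by inhibitors of the IkB family until a kinase complex marks those inhibitors for destruction. In the canonical route RELA works with the product of NFKB1, and in the non-canonical route RELB works with the product of NFKB2, after the kinase NIK (MAP3K14) has accumulated. Several genes of the system are themselves NF-kB targets, among them NFKBIA, TNFAIP3, NFKB2 and RELB, so that their transcripts serve as a record of recent NF-kB activity. Viral RNA and DNA sensors and cytokine receptors are well-known activators.

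The sequences below are the matches to the kB consensus in the promoters of the genes, shown because NF-kB is known to act on its own genes through elements of this kind. RefSeq promoter windows (GRCh38.p14, 250 bases before to 50 after the transcript start) were given for 8 of the 10 genes, all but RELB and NFKBIE, in 14 windows. The consensus was GGGRNNYYCC, where R is A or G, Y is C or T and N is any base. It was searched on both strands with overlapping or adjoining matches shown on one line. A match was held by 6 of the 14 windows, belonging to 5 of the 8 genes, and by 11.3% of all 35116 promoter windows. No match was found in the windows of RELA, TRAF1 and ICAM1. Elements that depart from this consensus, or lie outside the windows, were not sought, so these genes may hold some. Capitals mark the bases matched on either strand, and each line reads 5′ to 3′ on the strand of the gene.
NFKBIA, chr14:35404811-35404840, minus strand: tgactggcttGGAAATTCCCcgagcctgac
TNFAIP3, chr6:137867188-137867217, plus strand: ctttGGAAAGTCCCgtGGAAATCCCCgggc
NFKB2, chr10:102394462-102394491, plus strand: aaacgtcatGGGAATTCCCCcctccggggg
NFKB2, chr10:102394490-102394519, plus strand: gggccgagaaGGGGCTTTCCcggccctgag
NFKB2, chr10:102395674-102395703, plus strand: tggtattttcGGGACTTTCCtaagctgctc
NFKB1, chr4:102501300-102501329, plus strand: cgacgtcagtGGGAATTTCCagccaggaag
BIRC3, chr11:102317275-102317304, plus strand: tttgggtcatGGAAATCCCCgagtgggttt

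TNFAIP3 held 2 matches side by side, the first starting 67 bases before the transcript start, and the NFKBIA match started 81 bases before it. The NFKB2 sites lie in the second and the third of the 3 windows of that gene, and the last one starts 21 bases before the start of the third. Further matches, not shown, lie in the third window of NFKB2 and in that of BIRC3. A match is a description of the letters and not evidence of binding.

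Depth was similar in all libraries, with 82254731 gene reads in R625H, 86394759 in K666T, 83025588 in K700E and 90939945 in WT. The share of read pairs that did not map was 16.5% in R625H, 17.3% in K666T and 15.2% in K700E, against 8.84% in WT, and its part in the results was not tested. SF3B1 stood between 512 and 521 CPM (the count of a gene scaled to the gene reads of its library) in the mutant libraries and at 506 in WT, but gene counts do not separate the vector from the cells' own gene or the mutant from the wild-type sequence, so they do not check the labels. Markers fixed for HEK293 and epithelial cells (PAX2, KRT8, KRT18, VIM, NEFM, CDH2) were present in every library. Their summed level was 1355 CPM in R625H, 1325 in K666T, 1264 in K700E and 1336 in WT. Single markers differed more than the sum, with log2 ratios to WT from -0.38 to 0.24 in R625H, -0.37 to 0.19 in K666T and -0.14 to 0.20 in K700E. In R625H, VIM was at 660 CPM against 560 in WT, and NEFM at 329 against 428. Of 7 immune markers, PTPRC, CD3E, LYZ and CSF1R were under 1 CPM in all libraries, and CD3E was at 0 in WT. The summed level of the immune markers was 4.50, 4.54 and 5.28 CPM in R625H, K666T and K700E, against 3.73 in WT. The myeloid integrin gene ITGAM had 85, 78 and 78 reads in R625H, K666T and K700E, against 21 in WT. Endothelial markers summed to at most 0.289 CPM, and fibroblast markers to 27.4, 29.6 and 31.1 CPM in R625H, K666T and K700E, against 31.7 in WT. The part of these markers in the results was not tested.

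**Figure D1:**
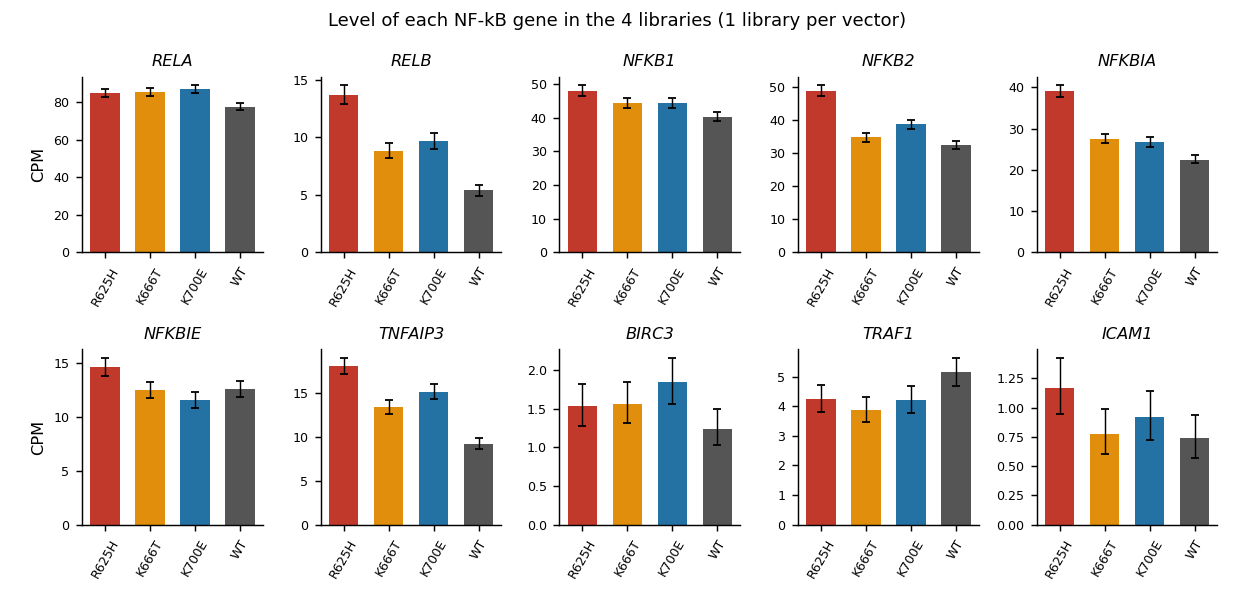
Bars give the level of each of the 10 genes in CPM (counts scaled to the gene reads of the library, linear axis from 0, a scale of its own for each gene) in the 4 libraries, with exact Poisson 95% intervals that cover counting error only. R625H is the highest bar in 7 of the 10 genes and WT the lowest in 8. ICAM1, which reached 1 CPM in R625H alone, is in both counts.

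RELB, NFKB2, NFKBIA and TNFAIP3 were higher in all 3 mutant libraries than in WT, and highest in R625H. RELB in R625H was the only 1 of the 30 ratios of a listed gene to WT that reached 2-fold. RELA and NFKB1 were nearly level, and TRAF1 was lower by gene reads in every mutant library than in WT. Over the 10 genes the median log2 ratio to WT for R625H, K666T and K700E came to 0.43, 0.14 and 0.25, against -0.017, -0.002 and 0 as the medians of the 14847 genes with at least 1 CPM in some library. These comparisons share the WT library. In such bulk samples a smaller share of responding cells and less RNA in each cell cannot be told apart. At least 2-fold higher than WT were 1 of the 10 genes in R625H, where the background was 0.653% of all genes, 0 in K666T (0.694%) and 0 in K700E (1.31%). None was at least 2-fold lower, against 0.0269, 0.00674 and 0.438% of all genes. All 10 genes passed the filter on low counts. ICAM1 passed it through R625H alone, the library where it was highest, so its presence in these counts is not independent of its value and it is not used as support. The medians above include it. Among the 9 other genes the middle log2 ratio to WT was 0.28 in R625H (that of BIRC3), 0.14 in K666T and 0.25 in K700E.

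The counting interval of the ratio to WT lay above 0 for 8 of the 10 genes in R625H, 6 in K666T and 7 in K700E, against 24.9, 29.3 and 33.2% of all genes, and below 0 for TRAF1 in each (30.4, 28.4 and 32.7% of all genes). Genes with more reads have narrower intervals, and the shares of all genes were not matched to the list for reads. Without ICAM1 the intervals above 0 were 7, 6 and 7 of 9. Because the genes were chosen with earlier results of these data known, the counts in this paragraph describe the list and are not used as support. R625H had the highest level of the 4 libraries in 7 of the 10 genes, compared with 13.0% of all genes, K700E in 2 (31.9%) and WT in 1 (35.8%). ICAM1 is among the genes highest in R625H. WT had the lowest in 8, compared with 32.9% of all genes, K666T in 1 (14.2%) and K700E in 1 (29.4%). ICAM1 is also among the 8, with 67 reads in both WT and K666T, so that only the scaling to library size puts WT lowest. Scaled to exon length, the order of levels in R625H began with NFKBIA at 16.5 RPKM (CPM divided by exon length), followed by RELA at 15.5. In WT it began with RELA at 14.2, followed by NFKBIA at 9.48. NFKB2, NFKB1 and NFKBIE came next in both libraries. TNFAIP3 and RELB stood at 3.57 and 4.51 RPKM in R625H and, within counting error of each other, at 1.82 and 1.78 in WT. TRAF1, ICAM1 and BIRC3 were under 1 by that measure in all 4 libraries. Exon lengths came from GENCODE 29, which may differ from the annotation used for counting.

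Among the subunits, RELB, the partner of the NFKB2 product in the non-canonical route, had 1125 reads (13.7 CPM) in R625H, 761 (8.81 CPM) in K666T and 800 (9.64 CPM) in K700E, against 490 (5.39 CPM) in WT. Every mutant library was above WT, and R625H above the other mutants. R625H had a log2 ratio to WT of 1.33 (95% interval 1.19 to 1.5). The ratio of K666T was 0.70 (0.54 to 0.88), and that of K700E 0.83 (0.67 to 1.0). In the ranking of all 14847 ratios, RELB was 56th from the highest in R625H, 210th in K666T and 276th in K700E. NFKB2 had 4013 reads (48.8 CPM) in R625H, 2992 (34.6 CPM) in K666T and 3202 (38.6 CPM) in K700E, against 2946 (32.4 CPM) in WT. It stood apart in R625H, at a log2 ratio of 0.59 (0.52 to 0.66), while K700E was at 0.25 (0.18 to 0.32) and K666T at 0.10 (0.02 to 0.17).

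The canonical subunits differed little from WT. RELA, the main activating subunit, had 6978 reads (84.8 CPM) in R625H, 7382 (85.4 CPM) in K666T and 7217 (86.9 CPM) in K700E, against 7050 (77.5 CPM) in WT. The mutant libraries lay within 0.04 of each other on the log2 scale and 0.13 to 0.16 above WT. NFKB1, which encodes a precursor protein, had 3953 reads (48.1 CPM) in R625H, 3836 (44.4 CPM) in K666T and 3676 (44.3 CPM) in K700E, against 3664 (40.3 CPM) in WT. Its log2 ratio was 0.25 in R625H (0.19 to 0.32) and 0.14 in both other mutant libraries.

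**Figure D2:**
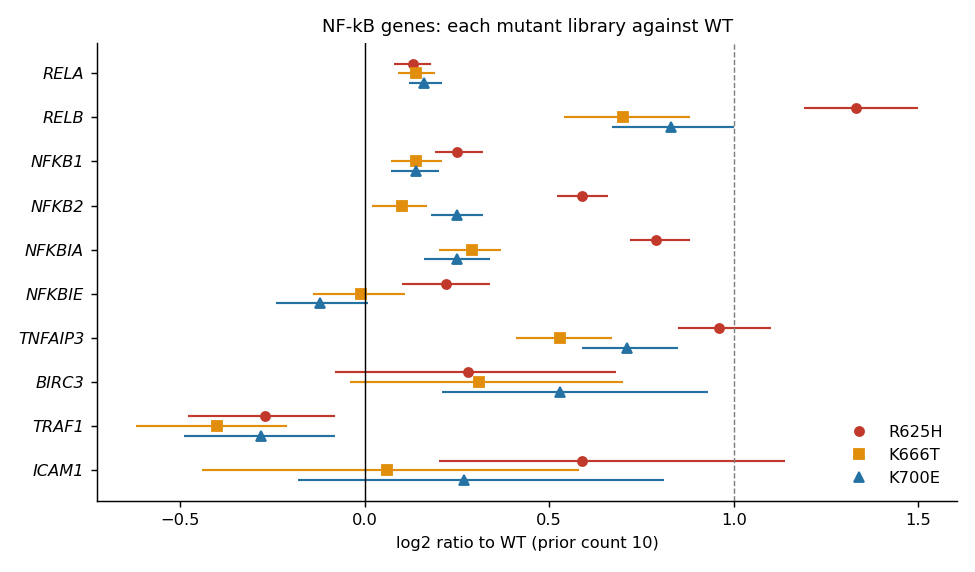
Points give the log2 ratio of each mutant library to WT for the 10 genes (CPM with a prior count of 10), and lines the exact 95% interval for counting error. The dashed line marks 2-fold. Only RELB in R625H, at 1.33, is beyond it. TNFAIP3 in R625H, at 0.96, comes next, and the TRAF1 points lie left of 0.

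The inhibitor genes differed in their pattern. NFKBIA encodes IkB-alpha, which binds NF-kB and is rebuilt soon after its own destruction. It had 3215 reads (39.1 CPM) in R625H, 2374 (27.5 CPM) in K666T and 2219 (26.7 CPM) in K700E, against 2046 (22.5 CPM) in WT. R625H was high, and K666T and K700E were close to each other a little above WT. R625H had a log2 ratio of 0.79 (0.72 to 0.88), K666T one of 0.29 (0.20 to 0.37) and K700E one of 0.25 (0.16 to 0.34). TNFAIP3 encodes A20, a ubiquitin-editing enzyme that ends signalling upstream of the IkB kinases. It had 1483 reads (18.0 CPM) in R625H, 1152 (13.3 CPM) in K666T and 1256 (15.1 CPM) in K700E, against 835 (9.18 CPM) in WT. All mutant libraries were above WT, with log2 ratios of 0.96 (0.85 to 1.10), 0.53 (0.41 to 0.67) and 0.71 (0.59 to 0.85) in R625H, K666T and K700E. In R625H the value lay just under 2-fold by gene reads and, at 1.12, above it by splice junction reads. NFKBIE encodes IkB-epsilon, a slower inhibitor of the same family. It had 1207 reads (14.7 CPM) in R625H, 1078 (12.5 CPM) in K666T and 963 (11.6 CPM) in K700E, against 1146 (12.6 CPM) in WT. R625H was above WT by 0.22 (0.10 to 0.34), and the intervals of K666T (-0.14 to 0.11) and K700E (-0.24 to 0.01) held 0.

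The target genes were the least abundant of the list, and counting error was wide. BIRC3, the ubiquitin ligase cIAP2 that acts at TNF receptors, had 126 reads in R625H, 135 in K666T and 153 in K700E, against 113 in WT. K700E was highest, at a log2 ratio of 0.53 (0.21 to 0.93), and the intervals of the other mutants held 0. Junction reads of BIRC3 numbered 57 in R625H, 59 in K666T and 71 in K700E, against 59 in WT. By these the K700E interval also held 0, at 0.25 (-0.23 to 0.81). ICAM1, an adhesion molecule for leukocytes, had 96 reads in R625H, 67 in K666T and 76 in K700E, against 67 in WT. R625H was above WT by 0.59 (0.20 to 1.14), and K666T and K700E were not separable from WT at this depth. TRAF1, an adaptor of TNF receptors, had 349 reads in R625H, 334 in K666T and 350 in K700E, against 468 in WT. All mutant libraries were below WT and near each other, with log2 ratios of -0.27 (-0.48 to -0.08), -0.40 (-0.62 to -0.21) and -0.28 (-0.49 to -0.08) in R625H, K666T and K700E. Junction reads of TRAF1 did not show this. They numbered 104 in R625H, 91 in K666T and 146 in K700E, against 124 in WT, and the intervals of all 3 log2 ratios held 0, at -0.12 (-0.52 to 0.26), -0.34 (-0.78 to 0.02) and 0.24 (-0.10 to 0.61). Of its 3 introns with at least 10 reads in every library, 2 were above WT in R625H and in K666T and 3 in K700E, where they were 0.63 to 0.76 above it.

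R625H and K666T were transfected with the same plasmid amount, so for this pair the labels name no difference other than the substitution. Leaving out ICAM1, which passed the filter through R625H alone, 6 of 9 genes had a counting interval above 0 in R625H against K666T, and none had one below 0, while over all genes these were 11.8 and 22.3%. With ICAM1 the count was 7 of 10. RELB was higher in R625H by log2 0.63 (0.50 to 0.77), NFKBIA by 0.51 (0.43 to 0.59), NFKB2 by 0.49 (0.43 to 0.56) and TNFAIP3 by 0.43 (0.32 to 0.55). These ratios ranked 29th, 70th, 80th and 105th from the highest among 14847 genes, in a comparison where 0.0337% of genes were at least 2-fold higher and the same percent at least 2-fold lower. None of the 10 reached 2-fold. NFKBIE (0.23), NFKB1 (0.11) and ICAM1 (0.52, from 96 and 67 reads) were the others whose interval lay above 0. The ICAM1 value depends on the strand: with unstranded counts it was 0.21.

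K700E differed in plasmid amount from both other mutants, so substitution and amount cannot be told apart there. R625H was above K700E in NFKBIA by log2 0.55 (0.47 to 0.63), RELB by 0.50 (0.37 to 0.64), NFKB2 by 0.34, NFKBIE by 0.34, TNFAIP3 by 0.25 and NFKB1 by 0.12, and these 6 intervals lay above 0, as did 22.1% over all genes, while none lay below 0 (30.5%). K666T against K700E gave intervals below 0 for NFKB2 (-0.15) and TNFAIP3 (-0.18) and none above 0, against 22.6 and 24.4% of all genes. No gene of the list was 2-fold apart in these comparisons, where at least 2-fold higher and lower were 0.202 and 0.653% of genes for R625H against K700E and 0.115 and 0.599% for K666T against K700E.

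The rest of the pathway was read from a list of 97 other genes, of which 94 were matched in the files and 69 passed the filter. At least 2-fold higher than WT were 3 of the 69 in R625H, against 0.653% of all genes, 0 in K666T (0.694%) and 0 in K700E (1.31%), and none was 2-fold lower in any. These counts depend on the filter and the strand: without a filter 5, 1 and 4 listed genes were 2-fold apart from WT in R625H, K666T and K700E, and with unstranded counts 3, 0 and 1. The 3 in R625H were targets. IL32, a cytokine gene, had 531 reads in R625H, 169 in K666T and 175 in K700E, against 154 in WT, so that R625H alone stood high, with a log2 ratio of 1.86 (1.67 to 2.20). The ratio of IL32 in R625H to WT was 27th from the highest of all genes. TNFRSF9, a receptor that costimulates T cells, had 418 reads in R625H, 179 in K666T and 239 in K700E, against 155 in WT, with log2 ratios of 1.51, 0.27 and 0.72. CXCL2, a neutrophil chemokine, had 145 reads in R625H, 123 in K666T and 79 in K700E, against 67 in WT, with log2 ratios of 1.14, 0.85 and 0.32. CXCL2 reached 1 CPM only in R625H and K666T, where it was high, and 2 of 68 genes remain when it is left out. The order of the mutants was thus not the same in these genes.

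Over the 19 other targets that passed, the median log2 ratio was 0.28 in R625H, 0.05 in K666T and 0.17 in K700E. GADD45B, a stress-induced survival factor, was higher in all of them, by 0.70, 0.59 and 0.82. SOD2, the mitochondrial superoxide dismutase and a classical NF-kB target, was level at -0.02, -0.02 and -0.04. MYC was lower, at 167.9 CPM in R625H, 168.1 in K666T and 170.8 in K700E, against 211.5 in WT. Of the 19 targets, 13, 13 and 12 were above WT in R625H, K666T and K700E, and 6, 6 and 7 below it. Their intervals lay above 0 for 10, 4 and 8, and below 0 for 2, 2 and 3. The remaining roles lay close to WT. Medians in R625H, K666T and K700E were 0.11, 0.09 and 0.11 for 15 further inhibitors, 0.04, 0.11 and 0.09 for 12 kinases, 0.05, -0.03 and 0.05 for 16 adaptors and 0.01, -0.04 and -0.08 for 6 receptors. REL, the remaining subunit, was at 0.21, 0.13 and 0.16. MAP3K14, the kinase of the non-canonical route, was at 0.39 (0.28 to 0.50), 0.40 and 0.34, and BCL10, an adaptor of antigen receptors, at 0.41, 0.47 and 0.49. The kinase TAK1 (MAP3K7) was lower, at -0.41 (-0.46 to -0.36), -0.27 and -0.35. None of 9 ligand genes passed the filter. The ligand TNF itself, named here after its values were seen, had 23 reads in R625H, 28 in K666T and 34 in K700E, against 8 in WT, and the interval of its ratio lay above 0 in each (lower bounds 0.46, 0.71 and 1.08). In the same order of libraries, LTA had 31, 32 and 37 reads against 23 in WT, and IL1A 18, 22 and 15 against 10. TNFSF13B had 14, 17 and 14 against 16, and the remaining ligands had at most 7 in any library. CCL2, a monocyte chemokine also below the filter and also named after its values were seen, had 53, 30 and 45 reads in R625H, K666T and K700E, against 13 in WT. The other targets below the filter varied. IL6 had 10, 6 and 20 reads against 2 in WT, CCL20 50, 39 and 37 against 25, and EBI3 47, 25 and 20 against 19. CXCL1 had 25, 28 and 36 against 25, VCAM1 24, 5 and 16 against 13, and MMP9 14, 9 and 10 against 11. SELE, BCL2A1 and CSF2 had at most 12 in any library.

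**Figure D3:**
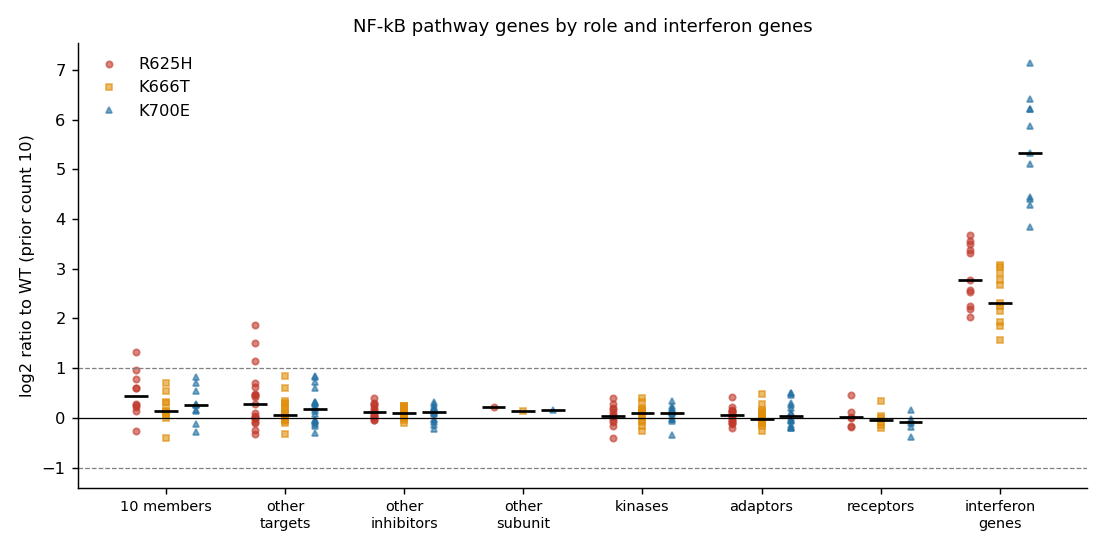
Each point is the log2 ratio to WT of a gene with at least 1 CPM in some library, by role in the NF-kB pathway, with R625H, K666T and K700E side by side. Short black lines are medians, and dashed lines mark 2-fold. Among the NF-kB genes only RELB, IL32, TNFRSF9 and CXCL2 in R625H are above the upper dashed line, while the interferon genes at the right are above it in all 3 mutant libraries and highest in K700E; 3 of these 11, IFNB1, CXCL10 and OAS1, passed only through libraries where they were high.

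Interferon genes were higher in the same libraries, in another order. Of 12 listed, 8 reached 1 CPM in all 4 libraries, and these 8 were at least 2-fold higher in R625H, in K666T and in K700E than in WT, against 0.653, 0.694 and 1.31% of all genes. Another 3 passed the filter only through libraries where they were high, IFNB1 through K700E and CXCL10 and OAS1 through the mutant libraries. MX1, under the filter, had 27 reads in R625H, 35 in K666T and 75 in K700E, against 19 in WT, with log2 ratios of 0.45, 0.68 and 1.65. The summed level of the 12 genes was 535 CPM in R625H, 373 in K666T and 2922 in K700E, against 82.8 in WT. The 8 genes were at least 2-fold lower in R625H than in K700E, against 0.653% of all genes, whereas RELB, NFKB1, NFKB2, NFKBIA, NFKBIE and TNFAIP3 were higher in R625H than in K700E. The part of the interferon genes in the NF-kB values was not tested.

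The genes whose 3 ratios to WT were nearest to those of RELB were sought among 14078 other genes with at least 1 CPM in all libraries, by Euclidean distance. The nearest was ETS1, a transcription factor gene with 213 reads in R625H, 134 in K666T and 169 in K700E, against 97 in WT (distance 0.244). TNC, which encodes the matrix protein tenascin C, followed at 0.346, with log2 ratios of 1.21, 0.41 and 0.98, and TNFAIP3, the A20 gene of this list, came after it at 0.412. HSPA6, an inducible heat shock protein, and TCERG1L came next at 0.445 and 0.463. The points compared are 3 ratios that share the WT library.

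Splice junction reads gave a second reading of the same libraries. The introns of each gene in GENCODE 29 were placed on the hg19 junctions of the files by their lengths and order, and between 6 and 29 introns fell together for each of the 10 genes, with no more than 1 at the next best placement. For RELB (introns within chr19:45504944-45540662, plus strand), junction reads summed to 972 in R625H, 649 in K666T and 773 in K700E, against 426 in WT. The log2 ratios were 1.30, 0.66 and 0.86, close to those of the gene counts. All 11 RELB introns with at least 10 reads in every library were above WT in each mutant, from 0.99 to 1.75 in R625H, 0.29 to 1.52 in K666T and 0.47 to 1.14 in K700E. For NFKBIA the junction ratios were 0.70, 0.15 and 0.14, below those of the gene counts in all 3.

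NFKB2 (introns within chr10:104154313-104162011, plus strand) was higher in R625H at all 23 introns measured, by 0.30 to 0.82. In K700E the ratio varied along the gene, from 1.34 at a first intron to -0.68 at the 14th in transcript order, with 17 introns above and 6 below 0, whereas K666T ran from -0.18 to 0.31. The first introns join alternative first exons to a shared acceptor at position 104155644. The first exon nearest to it, whose transcript start lies 1 base from that of the third promoter window, had 92 of 169 reads in R625H (54.4%, Wilson 95% interval 46.9 to 61.8), 68 of 116 in K666T (58.6%) and 172 of 262 in K700E (65.6%, 59.7 to 71.1), against 69 of 110 in WT (62.7%, 53.4 to 71.2). Its share was therefore not separable between any mutant and WT. The first exon that starts 19 bases from the second window had 19 reads (11.2%, 7.32 to 16.9) in R625H, 8 (6.90%) in K666T and 16 (6.11%) in K700E, against 2 (1.82%, 0.50 to 6.39) in WT. These are few reads, and only the R625H interval lay above that of WT.

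**Figure D4:**
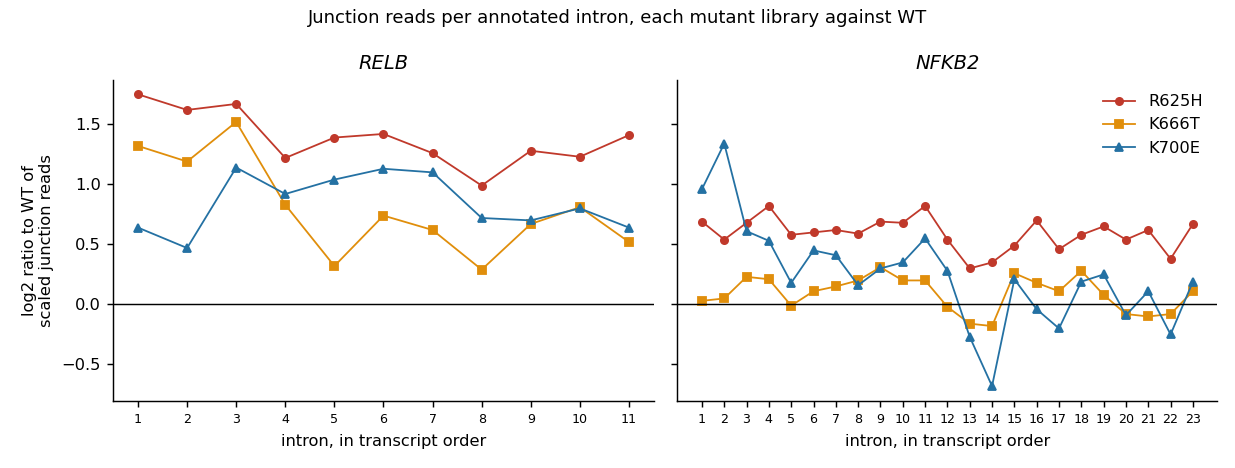
Points give the log2 ratio to WT of uniquely mapped junction reads, scaled to all such reads of the library, for each annotated intron with at least 10 reads in every library, in transcript order from left to right. RELB is above WT at all 11 introns in each mutant, and NFKB2 at all 23 in R625H, while NFKB2 in K700E runs from 1.34 at the left to -0.68 in the middle.

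The uneven NFKB2 profile in K700E was set beside other genes. For 5532 protein-coding genes with at least 8 introns and 500 junction reads, the ratio to WT in the introns on the 5′ side was divided by that on the 3′ side. NFKB2 had a log2 value of 0.44 in K700E, from 2341 and 1473 reads on the 5′ and 3′ sides, against 1731 and 1475 in WT. The median of all genes in K700E was 0.116, with 95% of genes between -0.33 and 0.63, so NFKB2 lay inside that range, above 89.5% of genes. In R625H and K666T the medians were 0.009 and -0.004 and the NFKB2 values 0.12 and 0.09.

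Junctions that share a donor or an acceptor with a more used one were also counted, since mutant SF3B1 is known for its use of cryptic acceptors shortly upstream of the usual one. There were 24 such entries with at least 20 reads over all libraries, in 6 of the genes, of which 15 were introns of GENCODE 29. The files themselves mark at least 99.8% of listed junctions as annotated in every library, so that mark does not separate known from other junctions. A junction missing from a file may not have been offered to the aligner there and is given as not listed. An NFKB2 acceptor outside GENCODE 29, 16 nt upstream of the main one (chr10:104155738-104155993) had 2.5% in R625H, 2.73% in K666T and 2.03% in K700E, against 3.05% in WT, and was thus level. Another NFKB2 acceptor outside GENCODE 29, 124 nt upstream (chr10:104161276-104161377), had 7 of 200 reads in R625H (3.5%), 4 of 138 in K666T (2.90%) and 17 of 150 in K700E (11.3%, 7.20 to 17.4), against 2 of 148 in WT (1.35%, 0.371 to 4.79). The K700E interval lay above that of WT. A RELA acceptor 30 nt downstream of the main one (chr11:65425941-65426188, minus strand) had 23 of 510 reads in R625H (4.51%) and 31 of 582 in K700E (5.33%), against 29 of 560 in WT (5.18%), and was not listed in K666T. At a little-read RELA donor, an acceptor outside GENCODE 29 lay 38 nt downstream (chr11:65425822-65427209). It had 7 of 32 reads in R625H (21.9%, 11.0 to 38.8), 14 of 39 in K666T (35.9%, 22.7 to 51.6) and 8 of 27 in K700E (29.6%, 15.9 to 48.5). WT had 0 of 13 (0 to 22.8%), where the junction may not have been listed, and all 3 mutant intervals overlapped that of WT. In NFKBIA a GENCODE 29 acceptor 129 nt downstream of the main one (chr14:35871741-35871976, minus strand) was used by 5.91% in R625H, 5.41% in K666T and 7.95% in K700E (5.59 to 11.2), against 3.37% in WT (1.84 to 6.09), with overlapping intervals. Tandem acceptors 3 nt apart in NFKB1 (chr4:103451072-103455004) and NFKB2 (chr10:104161917-104162008) were used to like degrees, at 39.6, 43.0 and 37.9% in R625H, K666T and K700E against 41.0% in WT, and at 45.2, 47.0 and 42.6% against 50.3%.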

How the data were processed

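For each of the 4 libraries the authors deposited 2 files of untransformed counts, one by gene and one by splice junction. Per the labels' protocols, libraries were made with a stranded mRNA kit and read as pairs of 100 bp. The tools named per the submitters' processing notes are STAR 2.5.3a and HTSeq, and the build is hg19 (GRCh37). The annotation release is not stated in these sources. Column 4 of the gene files (strand opposite to read 1) was used. The 4 rows that name no gene were left out: unmapped pairs, multimapping (4.01 to 4.40%), no feature (5.01 to 5.87%) and ambiguous (3.04 to 3.43%). Of 57820 IDs, 51996 were named from a gene name table and 342 from GENCODE 29; IKBKG, IKBKE, CCL5 and PECAM1 were not matched and are not analysed here.

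Log2 ratios use CPM with a prior count of 10, for 14847 genes with at least 1 CPM in at least 1 library. Intervals are exact conditional binomial 95% intervals of the ratio without the prior; shares have Wilson intervals. Both cover counting error only, and reads are not independent molecules. The log2 ratio and its interval were run on simulated counts with Poisson error alone. Those counts held no variation between libraries, so they do not check for it. Called means at least 2-fold apart. Named were the 10 genes, listed pathway genes past the filter and 2-fold apart from WT, 5 genes nearest to RELB, and an interferon list; others named were chosen after their values were seen. The genes and lists were chosen with earlier results of these data known. Introns of GENCODE 29 (GRCh38) were placed on hg19 junctions by length and order, and only positions of the files are printed for them. Competing junctions needed at least 10 reads in every library at the site they share and, a condition added after the data were seen, 20 reads of their own over all libraries. Alternatives were TMM factors (edgeR 4.0.16), DESeq2 1.42.0 size factors, a prior count of 1, unstranded counts, no filter, and junction reads. Other software was Python 3.11.15, numpy 2.4.6, pandas 2.3.3, scipy 1.17.1 and R 4.3.3.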

Additional observations from a re-analysis of the deposited data

How the results depend on the processing

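With TMM factors, DESeq2 size factors and a prior count of 1, each count stayed within 1.5 times its value, no median moved past its limit, and all 60 ratios of the 10 genes stayed within their counting intervals. Of 30 ratios of the 10 genes to WT, 28 kept their sign under these, unstranded counts and junction reads; TRAF1 in K700E (0.24) and NFKBIE in K666T (0.01) changed sign by junction reads, where 9 of 60 ratios moved by more than their counting error. With unstranded counts, the median of the 10 genes in K666T against WT was 0.21, and other pathway genes at least 2-fold apart numbered 1 in K700E against WT, 2 in R625H against K700E and 1 in K666T against K700E. Without the filter on low counts, all genes at least 2-fold apart numbered 213, 226 and 527 in R625H, K666T and K700E against WT, 60 in R625H against K666T, 263 in R625H against K700E and 212 in K666T against K700E, because more genes were tested. Other pathway genes then numbered 5, 1 and 4 against WT, 2 in R625H against K700E and 1 in K666T against K700E. Asking for 1 CPM in all libraries, an alternative chosen after seeing the data, left out ICAM1 and CXCL2 and gave 2 other pathway genes 2-fold apart in R625H against WT. No paired analysis was possible because each vector has 1 library and the labels carry no replicate numbers. Depth limits BIRC3 and ICAM1, and the first exons of NFKB2.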
